A study of Mus musculus with 6 samples.

Results

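The Hes and Hey genes encode basic helix-loop-helix repressors that carry the Notch signal from the membrane to the next set of genes. When a Notch receptor meets its ligand, gamma-secretase releases the intracellular domain, which joins the DNA-binding protein RBPJ on chromatin and switches RBPJ from repression to activation. Hes and Hey promoters are the textbook targets of this switch, and their products recruit Groucho corepressors or act through E box and N box elements to silence genes in turn. Hes1 is the member best known from T-cell development and T-cell leukemia, Hes5 and Hes3 from neural progenitors, Hes7 from the segmentation clock of the embryo, and the Hey genes from heart and blood vessels. Hes6 stands apart, because it is known as an antagonist of Hes1, and Hes2 is the least studied of the family.

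Chromatin accessibility around these genes was taken from an ATAC-Seq peak list of the Beko line of mouse progenitor T cells, whose Notch pathway is active without added ligand. The 9 members (Hes1, Hes2, Hes3, Hes5, Hes6, Hes7, Hey1, Hey2 and Heyl) were chosen by name out of 22380 protein-coding genes of the GENCODE annotation of the mouse build mm9. For each gene, every peak that met the gene body or the 50 kb to either side was collected. This gave 59 of the 32527 peaks in the list. The windows did not overlap, so no peak fell to more than 1 member. A promoter is called open here when a peak lies within 1 kb of any annotated start of the gene.

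Behind the list stand 6 libraries, 3 from cells treated for 24 h with the gamma-secretase inhibitor (GSI) DAPT and 3 from cells treated with DMSO, the solvent. The sample labels give the DAPT dose as 10 mg/ml, but the study's text gives the same figure in μg/ml. All 6 libraries come from 1 cell line with constitutive Notch activity, so no line without Notch activity and no primary T cell is in the comparison. The list is a single merged set, in which a peak had to recur in 3 of the 6 libraries. It therefore holds peaks of either treatment, has no signal per library, and allows no comparison of GSI with DMSO, no replicate error and no test. A promoter without a listed peak may still have had one in fewer than 3 libraries, and the depth of the libraries was not used.

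As a check of the cell type, 8 of 9 annotated progenitor T-cell markers had an open promoter, and so did 0 of 5 B-cell, 0 of 5 myeloid and 0 of 4 epithelial markers. Cd3d was the T-cell marker outside the limit, with its nearest peak 1119 bp away. Open promoters were also found at 3 of 4 erythroid markers (Gata1, Klf1 and Epor) and at 2 of 3 neural markers (Gfap and Snap25). The share over all coding genes was 46.9%. Transcription was not measured in these libraries, and a peak at a promoter does not give its level.

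Of the 9 promoters 5 were open, those of Hes1, Hes3, Hes6, Hey1 and Heyl, and 4 were not, those of Hes2, Hes5, Hes7 and Hey2. Among all coding genes the open share was 46.9%, with a 95% Wilson interval of 46.3 to 47.6% that covers counting error only, so 5 of 9 was near the background. A start lay inside a peak at 4 members (Hes1, Hes6, Hey1 and Heyl), against 44.0% of coding genes. Hes3 was called only through its downstream start, 713 bp from a peak. Next outside the limit stood Hes7, with a peak 1329 bp from its start. The distance then rose to 2726 bp at Hes5 and 4612 bp at Hes2, and at Hey2 the nearest peak was 31475 bp away. At least 1 peak lay in the window of every member, which held for 77.2% of coding genes.

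**Figure D1:**
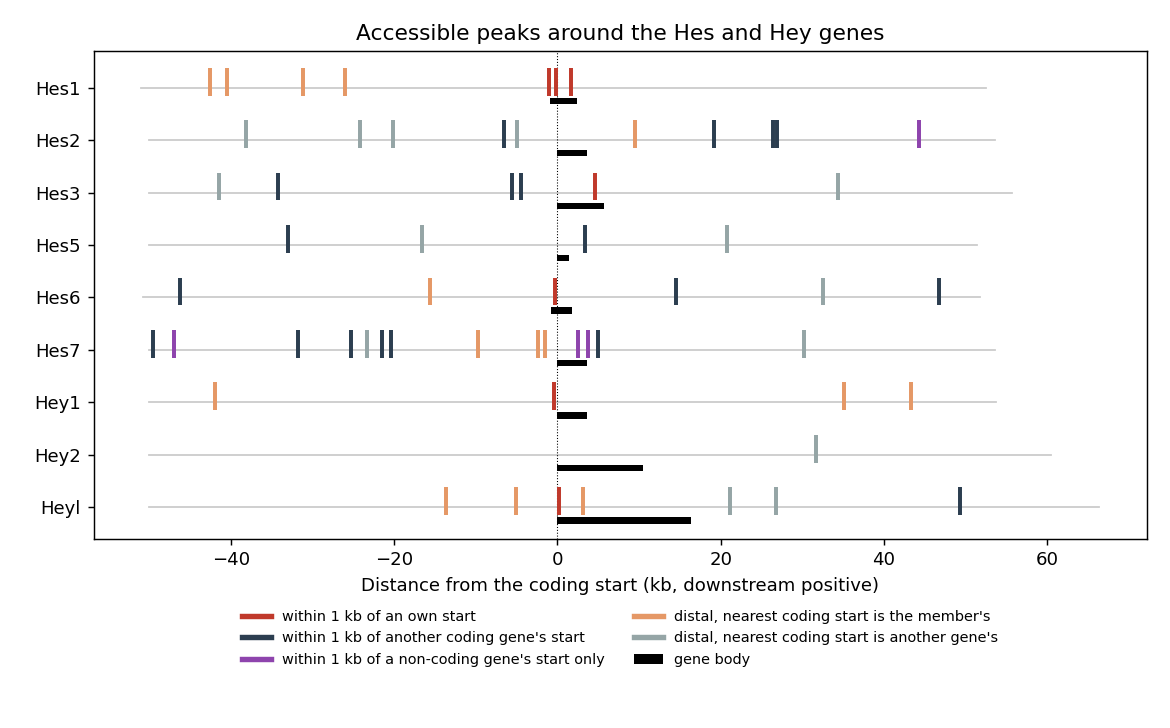
Position of the 59 accessible peaks (vertical bars, drawn at peak centres and not to width) in kb from the coding start of each gene, read in the direction of transcription; the grey line is the window searched, the black bar the gene body, and the colour tells which start the peak lies near. Hes1 and Hey1 have only peaks whose nearest coding start is their own, most of the Hes7 peaks lie near starts of other genes, and Hey2 has a single peak downstream.

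The windows in the map of peaks differed in whose start the peaks lay near. Of the 59 peaks, 7 lay within 1 kb of a start of the member itself, 19 within 1 kb of the start of another coding gene, and 4 near the start of a non-coding gene only. The other 29 were distal, 15 of them with the member as the nearest coding start and 14 nearer to another gene. By its centre, a peak fell in an exon in 15 cases, in an intron in 15 and between genes in 29. The median width was 550 bp in the windows and 551 bp in the whole list. The outermost peak counted, in the Hes7 window, was 49343 bp from the gene body, and the first one left out was 50148 bp from that of Hes2.

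Hes1, the main Hes gene of the T lineage, had the most peaks at its own starts within the family. The gene lies at chr16:30064470-30067882 on the plus strand and 3 of its 7 window peaks were within 1 kb of its own starts. Only 0.818% of coding genes had 3 or more such peaks, a comparison made after the Hes1 value was seen. The count also depends on the starts searched, and Hes1 has 4 annotated starts, against 1 at Hes7, Hey1 and Hey2. The peak over the coding start (chr16:30065027-30065579) was 553 bp wide and ran from -399 to +153, counted from the coding start as base 0 with minus for upstream. Another peak of 685 bp (chr16:30064070-30064754) covered the start of a non-coding Hes1 transcript at -956, and the last, of 537 bp (chr16:30066787-30067323), lay in the 3′ part of the gene, in an exon. The last one began at +1361 and was counted only through starts of non-coding Hes1 transcripts, the nearest at +998, 363 bp away. None of the 3 was wide for a promoter peak, since 19.0%, 29.8% and 17.8% of the 11522 promoter peaks were narrower, in the order given.

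The Hes1 promoter is the classic example of paired RBPJ sites, in which the cores face each other so that a dimer of Notch complexes can form. The core searched here was TGGGAA on either strand, and the position of a core is that of its first base in the direction of the gene. Hes1 had TGGGAA at -80 and again at -66, both inside the peak over the start. The 200 bases before the Hes1 start (chr16:30065226-30065425, plus strand, mm9) are shown first because they carry both cores inside open chromatin, with each core (TGGGAA or its TGAGAA form, either strand) in capitals. The same stretch of Hes5 (chr4:154334832-154335031, plus strand) follows, since it carries a core at nearly the same place in a promoter without a peak.
Hes1: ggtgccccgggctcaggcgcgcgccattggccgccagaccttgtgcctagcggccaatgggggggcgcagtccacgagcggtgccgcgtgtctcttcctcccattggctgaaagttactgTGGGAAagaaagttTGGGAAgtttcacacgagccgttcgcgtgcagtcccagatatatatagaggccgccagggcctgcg
Hes5: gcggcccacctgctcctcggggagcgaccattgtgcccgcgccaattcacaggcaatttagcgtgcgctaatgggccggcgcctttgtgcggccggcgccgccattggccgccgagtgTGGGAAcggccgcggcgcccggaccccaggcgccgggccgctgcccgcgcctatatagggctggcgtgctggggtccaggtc

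Read as a pair, the Hes1 core at -80 faces TTCACA across 16 nt, and TTCACA is a core on the opposite strand only when any base is allowed at the third position of that core. The pair spans chr16:30065346-30065373, from -80 to -53, and the core at -66 to -61 lies in its spacer. A search for facing TGGGAA or TGAGAA cores 15 to 17 nt apart therefore missed it and found no pair in any of the 59 window peaks, against 0.178% of all peaks. With any base allowed there, a choice made after the data were seen, the Hes1 pair was the single hit in the window peaks, and 0.326% of all peaks and 0.130% of coding promoters held one. Hes5 had no facing core at the matching distance from its core at -82, as the 28 bases of each gene show (chr4:154334950-154334977 for Hes5, capitals for the outer cores).
Hes1 from -80: TGGGAAagaaagtttgggaagtTTCACA
Hes5 from -82: TGGGAAcggccgcggcgcccggacccca

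Pairs outside peaks were found too, all far from the start of the member. Facing TGGGAA or TGAGAA cores 17 nt apart began at -48244 from the Hes5 start and at +18086 from the Hes6 start, 4533 and 3162 bp from the nearest peak. With any base at the third position 3 more appeared, of which the one at +15243 from the Hes6 start came within 319 bp of a peak.

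Upstream of Hes1, 4 further peaks stood alone, 24795 to 41297 bp from the nearest Hes1 start. They were 399 to 656 bp wide, between genes, and had Hes1 as the nearest coding gene, and 1 of them held TGGGAA. No peak was listed in the 50 kb after the gene. The 3 farthest were nearer to a start of the gene 4632428C04Rik, which is not protein-coding. Among coding genes all 7 Hes1 peaks were thus nearest to Hes1, and 78.4% of coding genes had fewer peaks.

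Hes6, the antagonist of Hes1, had the widest peak of the 59. Its gene lies at chr1:93308060-93310615 on the minus strand, and the peak (chr1:93309123-93311000) covered all 3 annotated starts over 1878 bp, wider than 99.0% of promoter peaks. The promoter held no RBPJ core, but TGGGAA occurred at 2 places in the peak, downstream of the coding start. A peak of 464 bp, 14557 bp upstream in an intron of the clock gene Per2, had Hes6 as its nearest coding start. Of its other 4 window peaks, 3 lay at the starts of Per2, Ilkap and Fam132b.

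Hes3 was open in a narrower sense. Of its 2 annotated starts (gene at chr4:151660081-151665771, minus strand), the upstream one was 4196 bp from the nearest peak, which lay 927 bp from the start of Icmt. The peak that gave the call (chr4:151660950-151661456, 507 bp) lay in an exon near the 3′ end of the gene, 713 bp from the downstream start. It held no TGGGAA and 1 TGAGAA. Of the other 5 Hes3 peaks, 3 lay within 1 kb of the starts of the neighbours Rpl22 and Icmt.

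Hey1, a repressor known from the vessel wall, had 1 peak at its start and 3 far from it. The gene lies at chr3:8663362-8667039 on the minus strand. Its start peak (chr3:8666843-8668014) measured 1172 bp, wider than 82.4% of promoter peaks, and reached from -975 to +196. TGGGAA occurred 3 times in it, and 2 of these stood just downstream of the start, at +2 and +19, in the same orientation. The 23 bases from +2 (chr3:8667015-8667037, minus strand) show both cores in capitals.
Hey1 from +2: TGGGAAggggcgcagcgTGGGAA

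The distal Hey1 peaks lay 41536 bp upstream and 34725 and 43081 bp downstream of the start, were 550 to 751 bp wide, and had no other coding start nearer. The first of them was closer to a small nucleolar RNA gene. As at Hes1, all 4 peaks in the window were nearest to the gene itself among coding genes.

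Heyl, the family member described in vascular smooth muscle, was open with a small peak. The gene lies at chr4:122910799-122927118 on the plus strand. Its start peak (chr4:122910743-122911178) was 436 bp wide, wider than 9.91% of promoter peaks, and lay almost wholly downstream of the start, from -56 to +379. It held TGGGAA at 2 places, both downstream of the start. The widest peak nearest to Heyl was not the one at the start but an intronic peak of 822 bp (chr4:122913488-122914309) that began at +2689. Its central 200 bases (chr4:122913799-122913998, plus strand) are shown as the intragenic peak that carries both TGGGAA and the TGAGAA form, the latter on the minus strand, with capitals for the cores.
Heyl intron: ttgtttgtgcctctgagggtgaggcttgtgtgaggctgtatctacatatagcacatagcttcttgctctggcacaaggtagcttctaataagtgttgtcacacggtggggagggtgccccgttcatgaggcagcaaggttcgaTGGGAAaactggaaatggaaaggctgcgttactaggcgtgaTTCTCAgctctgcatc

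Upstream of Heyl, 2 more peaks at 13373 and 4938 bp had Heyl as the nearest coding gene, while the remaining 3 of its 7 peaks lay toward the start of Pabpc4.

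Among the members without an open promoter, Hes5 and Hey2 had promoters with an RBPJ core on each strand. Hes5 (chr4:154335032-154336480, plus strand) had 4 peaks in its window and none was nearest to it. The closest, 1224 bp wide, lay 2774 bp downstream of the coding start and covered the start of Pank4. Another covered a start of Tnfrsf14, 32487 bp upstream. All 4 peaks held TGGGAA.

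Hey2 (chr10:30552165-30562607, minus strand), the Hey gene best known from the heart, had the fewest peaks of the family. It had 1 peak of 493 bp (chr10:30530640-30531132), 31475 bp downstream of the start, and 22.8% of coding genes had fewer. That peak was 7727 bp from the nearest coding start, of Ncoa7, and held neither RBPJ core. The next nearest peak was 113083 bp from the gene body. The 200 bases before the Hey2 start (chr10:30562608-30562807, minus strand) are given because they hold an RBPJ core in capitals and are GC-rich, yet lie far from any peak.
Hey2: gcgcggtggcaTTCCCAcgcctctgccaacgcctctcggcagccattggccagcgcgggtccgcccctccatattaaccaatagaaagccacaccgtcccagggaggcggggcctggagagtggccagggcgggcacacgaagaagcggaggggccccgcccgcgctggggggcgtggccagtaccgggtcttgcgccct

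Hes2 (chr4:151532976-151536578, plus strand) had 10 peaks in its window, more than 92.4% of coding genes, and 1 of them, 8552 bp from its nearest start, had Hes2 as the nearest coding gene. Of the others, 4 lay within 1 kb of starts of the stereocilia gene Espn, upstream, or of the thioesterase gene Acot7, downstream. TGGGAA was found in 1 of the 10.

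Hes7 (chr11:68933906-68937557, plus strand) had 14 peaks in its window, more than 98.9% of coding genes and the most in the family, without a peak at its start. Of these, 6 lay within 1 kb of starts of Tmem107, Vamp2, Per1 and Aloxe3, and 3 near starts of non-coding genes. Another 3 were distal with Hes7 as the nearest coding start, 9417, 2013 and 1329 bp upstream. The farthest and the closest of these held TGGGAA. A peak of 562 bp inside the gene, 2183 bp downstream of the start, covered the start of the non-coding gene 9130213A22Rik.

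Peaks at Hes7 carried a feature of another kind, one not particular to Hes7. Transfer RNA genes are transcribed from internal promoter elements, one of which, the B box, was searched as GGTTCGA, any base, then TCC on either strand. It was counted after its presence in a Hes7 peak was noticed, and it occurred in 98 peaks, or 0.301% of the list. The placement of these matches is given for Hes7 alone, and whether they are more frequent there than at other members was not tested. At Hes7 3 peaks held it, lying 9417 and 1329 bp upstream of the start and 3038 bp downstream. The run printed is the strand that reads GGTTCGA, with the whole B box in capitals, from chr11:68932292-68932382 (minus strand).
Hes7 upstream peak: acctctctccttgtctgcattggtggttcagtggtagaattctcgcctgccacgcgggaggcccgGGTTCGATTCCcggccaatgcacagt

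An annotation of transfer RNA genes was not used here, and by their centres these peaks fell between annotated genes. Of simulated reads of 100 nt taken from the Hes7 peak 1329 bp upstream, 100% returned to their place in the genome, as they did at the peak 9417 bp upstream of Hes7. At the Hes7 peak 3038 bp downstream, which holds the B box at 2 places, 94.7% did so.

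**Figure D2:**
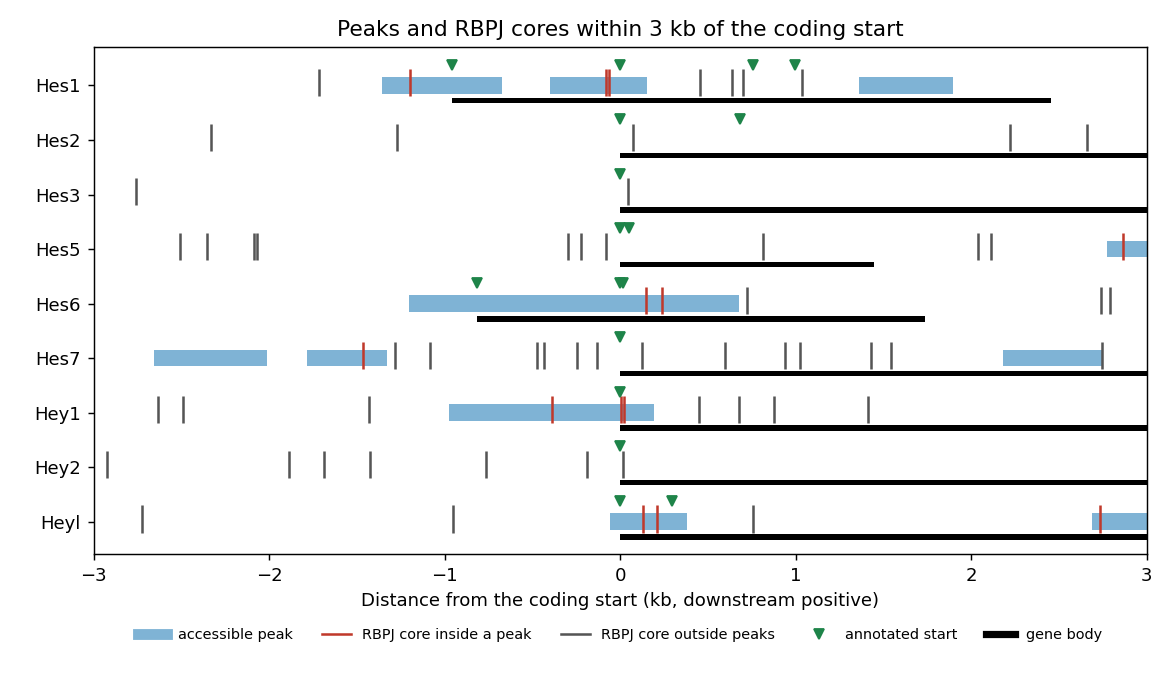
Peaks (blue blocks, to scale) and RBPJ cores (TGGGAA on either strand, red inside a peak and grey outside) within 3 kb of the coding start of each gene, with annotated starts as green triangles and gene bodies as black bars cut at the plot limits. Cores cluster at the starts of Hes1 and Hey1 inside peaks and at those of Hes5, Hes7 and Hey2 outside them.

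RBPJ cores were common at the starts whether or not these were open. In the promoter interval, from 250 bases before the coding start to 49 after it, TGGGAA occurred at 6 of 9 members, against 24.2% of coding promoters. At least 2 matches were found at 5 members (Hes1, Hes5, Hes7, Hey1 and Hey2), against 3.47%. Of these 5, Hes1 and Hey1 were open. At Hes5 the cores stood at -226 and -82, at Hes7 at -246 and -131, and at Hey2 at -189 and +15, with those at -226 and -189 and both of Hes7 on the opposite strand. Hes3 had a single core at +41 from its upstream start, and Hes2, Hes6 and Heyl had none.

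Within 3 kb to either side of the coding start the count ran from 2 at Hes3 to 14 at Hes7, as the plot of cores shows. At Hes1 3 of 8 cores lay inside peaks, at Hey1 3 of 10, at Heyl 3 of 6 and at Hes6 2 of 5. At Hes5 it was 1 of 11 and at Hes7 1 of 14, and at Hes2, Hes3 and Hey2 none of 5, 2 and 7. For Hes3 the stretch is that around its upstream start, and the peak that gave its open call, from +4315, lies outside it. Peaks covered 29.6% of that stretch at Hes1, 31.3% at Hes6, 27.6% at Hes7, 19.5% at Hey1, 12.5% at Heyl and 3.78% at Hes5. The Hes7 stretch was thus about as much covered as that of Hes1, but its cores lay almost wholly in the uncovered part.

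Over whole windows the core was about as frequent as anywhere in the list. TGGGAA was found in 27 of the 59 peaks (45.8%), against 42.5% of all peaks. It was present in 5 of the 7 peaks at own starts and in 5 of the 15 distal peaks nearest to a member. A match to so short a word is a description of the sequence and does not show that RBPJ binds there.

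**Figure D3:**
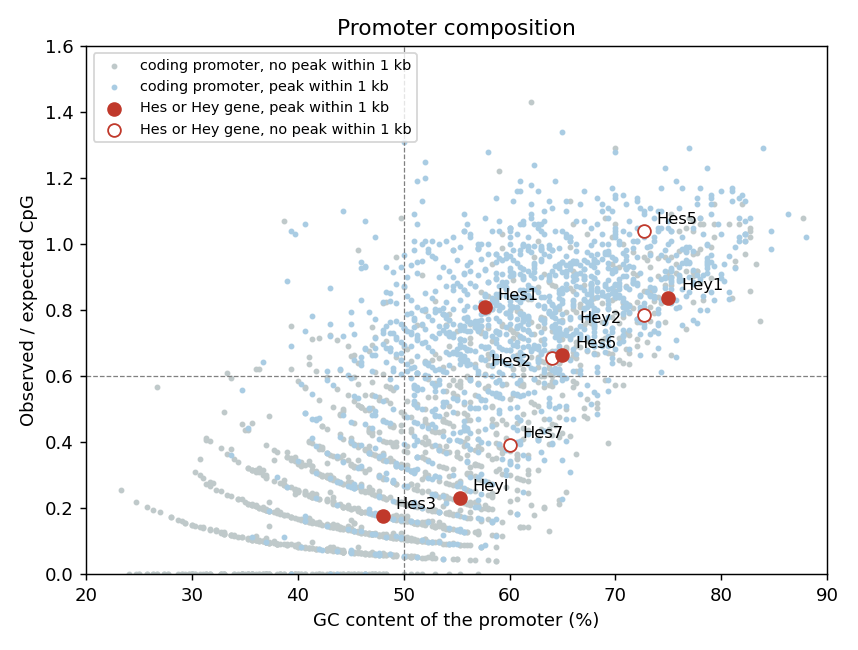
GC content (%) and observed to expected CpG ratio of the 300 bases around the coding start for the 9 genes (large circles, filled when a peak lies within 1 kb) and for 3000 coding promoters drawn at random (small points, blue with and grey without a peak within 1 kb); dashed lines mark 50% and 0.6. Hes5 and Hey2 sit among the CpG-rich promoters without a peak, and Heyl among the CpG-poor ones with one. Hes3 is drawn at the composition of its upstream start, while the peak that gave its call is near its downstream start.

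CpG-rich promoters, those of 50% GC or more whose ratio of observed to expected CpG reached 0.6, are accessible in most cell types. Of all coding promoters 42.6% were CpG-rich, and 75.7% of these were open, against 25.6% of the others. Of the members 6 were CpG-rich, and 3 of the 6 were open. The open ones were Hes1 (57.7% GC, ratio 0.808), Hes6 (65.0%, 0.663) and Hey1 (75.0%, 0.838). The others were Hes2 (64.0%, 0.654), Hes5 (72.7%, 1.04) and Hey2 (72.7%, 0.784), so the promoter with the highest CpG ratio of the family, that of Hes5, had no peak. Conversely Heyl (55.3%, 0.230) was open with few CpG, and Hes7 (60.0%, 0.392) was CpG-poor without a peak. Hes3 (48.0%, 0.175) was CpG-poor at its upstream start, which lay 4196 bp from the nearest peak. Its open call came from the downstream start, whose composition was not measured. The medians of all coding promoters were 55.3% GC and 0.542. Over a longer stretch, from 500 bases before to 500 after the start, 4 members were CpG-rich (Hes5, Hes6, Hey1 and Hey2). Hes1 (45.7% GC) and Hes2 (ratio 0.501) then fell below a limit, and of the 4 Hes6 and Hey1 were open.

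The members also differed in the elements through which Hes and Hey proteins bind DNA, here searched on both strands of the promoter. The form CACGNG, called class C and an E box only where it reads CACGTG, was present at 5 members (Hes1, Hes2, Hes7, Hey1 and Heyl). This stood against 30.8% of coding promoters, and 4 of the matches were at Hes1. The N box form CACNAG was present at 3 (Hes1, Hes6 and Hes7), against 41.7%, and again 4 matches were at Hes1. The letters CACGAG fit both forms and are counted under each. Hes1 is known to repress its own promoter through N boxes. Elements of general promoter factors were counted after the data were seen. CCAAT, the NF-Y element, occurred at 6 members (Hes1, Hes5, Hes6, Hey1, Hey2 and Heyl), against 37.9%, and GGGCGG, bound by Sp factors, at 5 (Hes2, Hes6, Hes7, Hey1 and Hey2), against 43.9%. Both were present at Hey2, which had no peak.

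**Figure D4:**
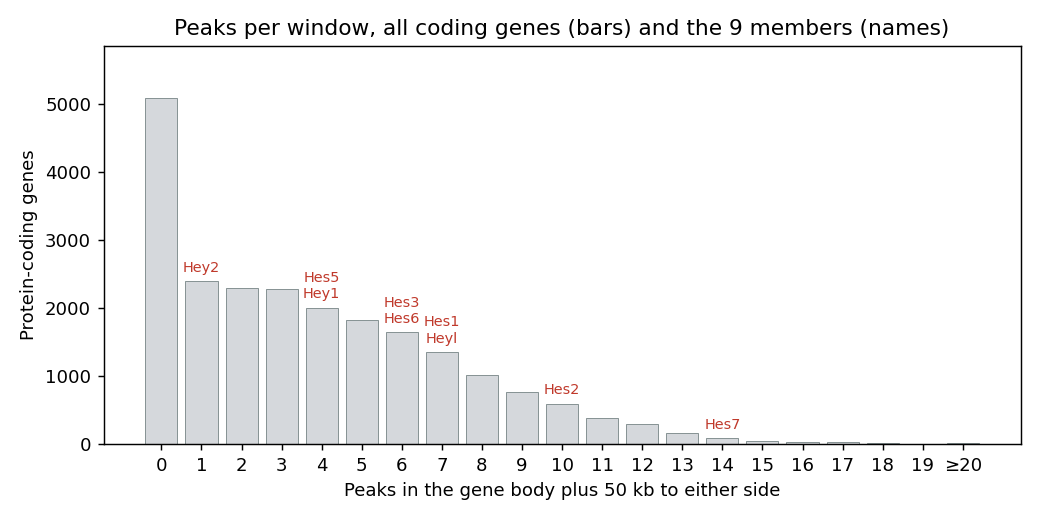
Number of protein-coding genes (bars) by the number of peaks in the gene body plus 50 kb to either side, with the 9 members named above the bar of their own count. Members range from 1 peak (Hey2) to 14 (Hes7), with a median of 6 against 3 for all coding genes.

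The median of the family was 6 peaks, or 5.85 per 100 kb, against 3 peaks and 2.38 per 100 kb over all coding genes, whose quartiles were 1 and 6. Hes7, Hes2, Hes1 and Heyl lay above the upper quartile and Hey2 at the lower one. Of the 59 peaks, 23 had a member as the nearest coding start. Covered length ran from 493 bp at Hey2 to 8890 bp at Hes7, with 3748 bp at Hes1, 3191 bp at Hey1 and 5033 bp at Hes6. Hes2 and Hes3 lie near each other on chromosome 4, but their windows do not overlap and so could share no peak.

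Other Notch target genes of T cells were described in the same way. Open promoters were found at 8 of the 9 with an annotation entry (Nrarp, Dtx1, Notch1, Notch3, Myc, Gata3, Tcf7 and Ccnd1), each with a start inside a peak. Of all coding genes 46.9% were open and 44.0% had a start inside a peak. Their windows held a median of 10 peaks, from 6 to 17. Il2ra, the interleukin-2 receptor alpha chain, was the exception, with its nearest peak 5128 bp away and 12 peaks in its window. The difference between 8 of 9 here and 5 of 9 among the Hes and Hey genes was not tested, since both sets were chosen with results of these data known.

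Among related repressors with the same bHLH-Orange architecture, Bhlhe40 was open and Bhlhe41 and Helt were not, with peaks 9002 and 16453 bp away, although all 3 promoters were CpG-rich. Of 6 listed genes of the Groucho family, not all of which are corepressors that Hes proteins recruit, 4 were open (Tle3, Tle4, Tle6 and Aes). The share of coding genes was 46.9%. Tle1 had no peak in its window and Tle2 had one 2678 bp from its start. Of the proneural genes known to be silenced by Hes proteins in neural tissue, none of Neurog1, Neurog2, Neurog3, Atoh1 and Neurod1 was open. Neurog2, Atoh1 and Neurod1 had no peak in the window, and Neurog1 and Neurog3 had 4 and 2.

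Failure to place reads was checked as a value beside the missing peaks. Of simulated reads of 100 nt around the starts, 100% were placed at Hes2, Hes5, Hes7 and Hey2, and 99.3% or more at the other members. The RefSeq starts matched for 4 genes left the calls of these genes as they were, and Hes3 was not among them. Hes5 had the same start, that of Hes7 was 49 bp downstream and 1378 bp from a peak, that of Hey2 18 bp downstream and 31457 bp from one, and both Hes6 starts lay in the peak.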

How the data were processed

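ATAC-Seq was performed by the authors with a commercial kit on Beko cells (3 libraries with GSI, 3 with DMSO; groups and replicate numbers from the labels). Per the labels and the study's methods, reads were aligned to mm9 with HISAT2 2.2.1, duplicates were removed with Picard, peaks were called with MACS2 without input, peaks found in 3 of the 6 libraries were kept and blacklisted regions were removed. The deposited list gives chromosome, start and end per peak and a score that is 0 throughout; neither a fold change nor a value per library was used. Calling without input takes the background from the library itself, and shifting of read ends for the transposase is not given in the sources used here.

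Starts were counted from 0 in the list and are printed from 1. NCBIM37 (the mm9 assembly) with GENCODE vM1 served as reference, and all starts of a gene were used. Offsets refer to the most upstream start of a protein-coding transcript. The class of a peak was set by starts within 1 kb, and otherwise by the nearest coding start. Motifs were searched on both strands, overlapping matches counted. RefSeq promoters (made on GRCm38) were matched to mm9 by exact sequence for 4 genes. Reads of 100 nt, tiled every 10 nt, were placed with minimap2 2.31 and counted as placed at a mapping quality of 10 or more. Python 3.11.15, numpy 2.4.6, scipy 1.17.1, pysam 0.24.0 and matplotlib 3.10.9 were used, and peak counting was tested on simulated data.

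Named genes were the 9 members, genes with a start within 1 kb of a window peak, and fixed lists. The genes nearest to the only peak of Hey2 and to the farthest peaks of Hes1 were named too. The members and lists were chosen with earlier results of these data known. Alternatives were other distances, starts, window sizes, peak widths and motif forms. Protein sequences were not analysed here, and a few items of the lists and sequences are not reported here.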

Additional observations from a re-analysis of the deposited data

How the results depend on the processing

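No paired analysis was possible because peak positions come merged over the libraries. For the same reason no library could be left out. The call of Hes3 rested on its downstream start and on the 1 kb limit: at 0 or 500 bp, or with the 5′-most start alone, Hes1, Hes6, Hey1 and Heyl were open (4 of 9). With starts of protein-coding transcripts only, the number was 5. At 2 kb Hes7 joined (6), and at 5 kb all members but Hey2 were open (8). The peaks that added Hes5 and Hes2 were nearer to other coding genes. That of Hes5 covered the start of Pank4, and that of Hes2 lay 1317 bp from a start of Espn. Peaks of at least 500 bp left 4, without Heyl. The share of coding genes moved to 44.0% at 0 bp, 45.7% at 500 bp, 49.0% at 2 kb, 53.8% at 5 kb, 46.1% with starts of protein-coding transcripts, 43.9% with the 5′-most start, 43.8% with peaks of at least 500 bp and 47.6% on autosomes. Window peaks numbered 22, 30 and 96 with 10, 20 and 100 kb to either side, and 34 with peaks of at least 500 bp. At 10 and 20 kb 1 member, Hey2, had none. In the central 200 bp, TGGGAA was found in 11 of the 59 window peaks and in 15.3% of all peaks. With TGAGAA added, 62.5% of all peaks held a core, and 39 window peaks did. Any base at the third position turned 0 pairs into 1, that of Hes1. These shifts follow from the distances, widths and letters allowed. From 500 bp before to 500 bp after the start, 4 members rather than 6 were CpG-rich, without Hes1 and Hes2. With starts of all genes, 18 rather than 23 window peaks were nearest to a member, and with distance to the peak centre 23. Window peaks numbered 59 by their centre and 52 with peaks within 1 kb joined, and no member lacked a peak at 100 kb. No pair was found with TGGGAA alone or with 14 to 18 nt between the cores.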
